A study of Mus musculus with 4 samples.

Results

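Testicular macrophage genes were followed across the series as 9 rows of the deposited count table, taken where the gene symbol equals Cd68, Csf1r, Adgre1, C1qa, C1qb, C1qc, Lyz2, Mrc1 or Cd163, out of 25265 genes in all. Each symbol had 1 row, and all 9 genes passed the filter on low counts. The libraries were made from whole testes of C57BL/6 mice at postnatal day 56. Of the 4 libraries, 2 are labelled control and 2 are labelled Ythdf2-vKO (here the vKO-labelled libraries), a mutant of the gene for the m6A reader YTHDF2 that the series title calls germ cell-specific. Macrophages are not germ cells, so by that title the mutation was not placed in them. The labels give neither the transgene that drives the deletion nor the genotype of the controls, and they do not name separate animals as the source of the replicates. P-values therefore measure only the spread between these libraries, which may be technical.

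Macrophages are the main immune cells of the testis and lie in the interstitium among Leydig cells and along the peritubular wall of the seminiferous tubules. Macrophages depend on the receptor CSF1R, which binds the growth factors CSF1 and IL34, and on the transcription factor PU.1, encoded by Spi1. They take up debris, present antigen and secrete complement, and the receptors MRC1 and CD163 are typical of the tissue-resident state.

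The whole series set the frame as follows. Total gene counts ran from 24862518 to 29561182 per library, and the 9 genes together took between 0.00626% of the counts in control replicate 1 and 0.0123% in control replicate 2. Ythdf2, the targeted gene, had 1193 and 1604 counts in the controls, against 1774 and 1807 counts in the vKO-labelled libraries. These counts go against the label, so every direction is that of the vKO-labelled libraries. In the edgeR test named below the log2 fold change of Ythdf2 was 0.35 (SE 0.13, adjusted p 0.238), and it was not called. Whole-gene counts need not reveal a deleted exon, and the labels do not give the deleted part. Counts of a group's replicates differed beyond sampling noise, the chi-square divided by its degrees of freedom being 20.9 for the controls and 8.35 for the others. Genotypes were compared by the quasi-likelihood test of edgeR, Benjamini-Hochberg adjusted over 21132 genes, which called 83 genes at an adjusted p under 0.05. In whole-tissue RNA, fewer macrophages and less RNA per macrophage cannot be told apart.

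Stretches upstream of 4 members are shown, 3 from genes that were low together in control replicate 1 (C1qb, C1qc and Lyz2) and 1 from a gene that was nearly even across libraries (Mrc1). They come from RefSeq on GRCm38.p6 and end at the base before the annotated start that lies furthest upstream. C1qb is at chr4:136886201-136886450, minus strand. C1qc is at chr4:136893066-136893164, minus strand. Lyz2 is at chr10:117282322-117282522, minus strand. Mrc1 is at chr2:14229164-14229391, plus strand. Capitals mark GAGGAA or its reverse complement TTCCTC, the purine-rich core of the PU.1 binding motif.
C1qb: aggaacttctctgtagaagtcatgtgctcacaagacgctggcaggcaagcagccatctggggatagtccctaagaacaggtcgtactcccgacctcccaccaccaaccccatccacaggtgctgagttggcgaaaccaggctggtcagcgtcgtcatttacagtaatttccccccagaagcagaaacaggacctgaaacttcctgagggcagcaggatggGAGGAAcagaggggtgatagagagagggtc
C1qc: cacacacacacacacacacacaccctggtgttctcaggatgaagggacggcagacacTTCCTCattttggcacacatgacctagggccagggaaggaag
Lyz2: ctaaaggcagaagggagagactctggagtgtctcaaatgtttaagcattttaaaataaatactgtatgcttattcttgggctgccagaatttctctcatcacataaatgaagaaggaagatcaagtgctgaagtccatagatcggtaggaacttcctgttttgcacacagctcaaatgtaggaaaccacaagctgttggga
Mrc1: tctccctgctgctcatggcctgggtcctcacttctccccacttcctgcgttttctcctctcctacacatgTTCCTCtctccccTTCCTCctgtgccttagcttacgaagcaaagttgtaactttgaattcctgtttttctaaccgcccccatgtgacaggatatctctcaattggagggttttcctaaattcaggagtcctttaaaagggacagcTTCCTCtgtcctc
RefSeq windows of 300 bases, from 250 bases before to 50 after the start, were found for 6 of the 9 members. GAGGAA was found on either strand in 4 of these 6 (C1qb, C1qc, Cd68 and Mrc1), against 28.3% of 32851 windows in the genome. The longer GAGGAAGT, which contains the first motif, was found in 1 of the 6, C1qc, against 3.2% of all windows. The match of C1qb begins 30 bases before its RefSeq start and that of C1qc 193 bases before its own. The matches did not sort the members by their values, since Lyz2 held none and Mrc1 held 3. A match is a description of these letters and not a binding site.

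C1qa, C1qb and C1qc encode the 3 chains of C1q, the recognition protein that starts the classical complement pathway. The genes lie side by side on the minus strand of chromosome 4 in GRCm38, C1qb from 136880129 to 136886187, C1qc from 136889804 to 136893065 and C1qa from 136895917 to 136898803. Levels are given as CPM, read counts scaled to library size after TMM correction for composition. C1qa was at 5.56 and 15.2 CPM in control replicates 1 and 2, and at 12.4 and 9.56 CPM in the vKO-labelled libraries. C1qc was at 4.49 and 13 CPM in the controls, against 10.3 and 8.12 CPM in the vKO-labelled libraries. For each gene the control libraries held the lowest and the highest value, and the vKO-labelled libraries fell between them. C1qb showed the same order over a smaller range, at 12.4 and 21.7 CPM in the controls, against 17.7 and 16.7 CPM in the vKO-labelled libraries. The log2 fold change between the genotypes was 0.07 (SE 0.47, adjusted p 0.97) for C1qa, 0.00 (SE 0.23, adjusted p 0.996) for C1qb and 0.06 (SE 0.48, adjusted p 0.974) for C1qc.

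Csf1r encodes the receptor through which macrophages receive their main survival signal. It lies on chromosome 18, from 61100598 to 61132149 on the plus strand. It had 66 and 238 counts in the controls, against 280 and 147 counts in the vKO-labelled libraries, or 2.82 and 7.94 CPM against 10.5 and 5.45 CPM. Control replicate 1 was again lowest, but here replicate 1 of the vKO-labelled libraries was highest, and the groups overlapped. The group means were 5.38 ± 3.62 and 7.95 ± 3.54 CPM (SD, n = 2 each), with a fitted log2 difference of 0.54 (SE 0.55, adjusted p 0.737). Its longest transcript shares 873 nt with Hmgxb3, a gene on the opposite strand at 45.5 to 50.8 CPM, and whether the counting used strand is not given in the sources used here. The value for Csf1r is uncertain to that extent, although Hmgxb3 itself was nearly even (log2 fold change -0.01, SE 0.13).

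Lyz2 encodes the lysozyme of macrophages and other myeloid cells, an enzyme that cuts bacterial cell walls. It lies on chromosome 10, from 117277331 to 117282321 on the minus strand. Its levels were 9.45 and 27.8 CPM in the controls, against 21.8 and 20.3 CPM in the vKO-labelled libraries. The control libraries were again the lowest and the highest. The genotypes differed by 0.17 on the log2 scale (SE 0.56, adjusted p 0.941). The neighbouring Lyz1 is 95.8% identical over 1264 nt of the 1316 nt Lyz2 transcript, so reads could be split between the pair, but Lyz1 held only 3 and 4 counts in the controls, against 1 and 4 counts in the vKO-labelled libraries.

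Cd68, Adgre1 and Mrc1 varied far less. Cd68, a glycoprotein of lysosomes and endosomes (chromosome 11, 69664213 to 69666153), was at 2.4 and 2.8 CPM in the controls, against 2.43 and 2.41 CPM in the vKO-labelled libraries. Adgre1, an adhesion G protein-coupled receptor used as a surface marker of mouse macrophages (chromosome 17, 57358691 to 57483527), was at 4.41 and 3.94 CPM in the controls, against 3.85 and 5 CPM in the vKO-labelled libraries. Mrc1, the mannose receptor (chromosome 2, 14229392 to 14332057), was at 24.7 and 28.5 CPM in the controls, against 29.9 and 24 CPM in the vKO-labelled libraries. In none of these 3 genes did the groups separate, and in Adgre1 control replicate 1 lay above control replicate 2. Log2 fold changes were -0.11 (SE 0.29), 0.09 (SE 0.25) and 0.02 (SE 0.16), with adjusted p of 0.918, 0.921 and 0.976.

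Cd163, the scavenger receptor for haemoglobin bound to haptoglobin (chromosome 6, 124304656 to 124330527), was the only member whose groups did not overlap. It had 7 and 20 counts in the controls, against 42 and 36 counts in the vKO-labelled libraries, or 0.299 and 0.667 CPM against 1.57 and 1.33 CPM. Higher in each vKO-labelled library than in either control, it gave a log2 fold change of 1.54 (SE 0.50). The unadjusted p was 0.00829 and the adjusted p was 0.196, so Cd163 did not pass the threshold. Groups that do not overlap, with the vKO-labelled libraries higher, were found in 22.7% of all genes tested. In an exact permutation test of 1 gene over 2 against 2 libraries the smallest two-sided p possible is 0.333.

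**Figure D1:**
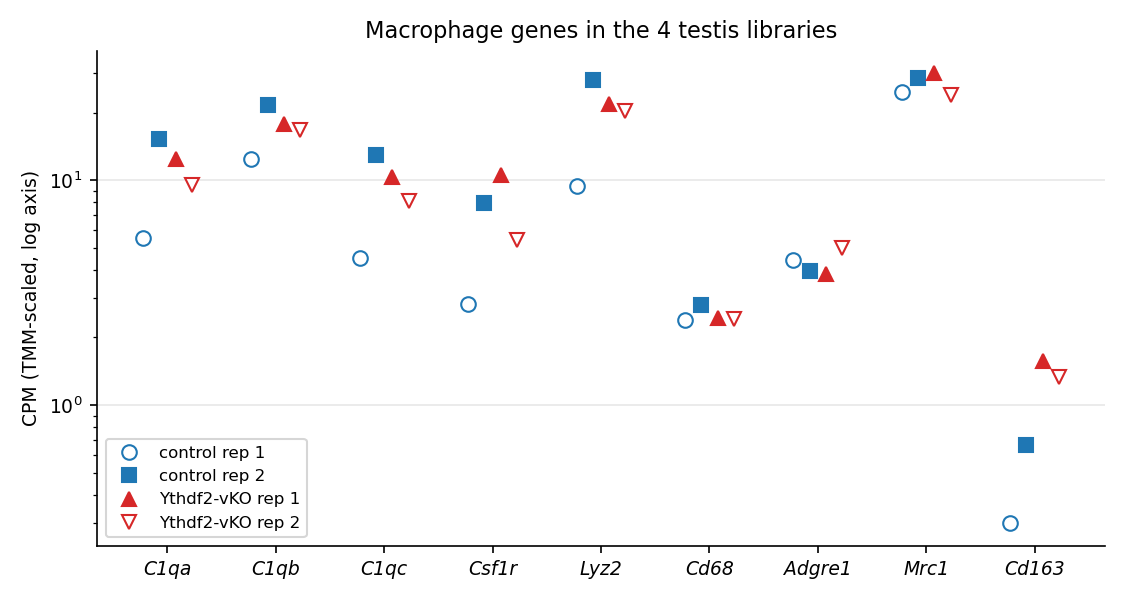
CPM (log axis) of the 9 macrophage genes in each library, with open and filled blue symbols for control replicates 1 and 2 and red triangles for the libraries labelled Ythdf2-vKO. Control replicate 1 is the lowest point in 7 genes, and in Cd163 both red points lie above both blue ones.

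No macrophage gene was called between the genotypes. By edgeR's quasi-likelihood test 0 of 9 passed an adjusted p of 0.05, against 0.393% of all genes tested (0.279% higher and 0.114% lower), and 1 of 9 (Cd163) had an unadjusted p under 0.05, against 14.1% of all genes. A DESeq2 Wald test on the same counts also called 0 of the 8 members to which it gave an adjusted p, with 1 of 9 at an unadjusted p under 0.05. The log2 fold change was positive in 8 of 9 members, C1qb among them at 0.00, with a median of 0.07. Over all genes tested 50.3% were positive and the median was 0.00265. The count of 8 fell under some other settings, given below. In the authors' deposited table the 9 log2 fold changes ran from -0.11 for Cd68 to 1.56 for Cd163 (SE 0.67), which has no adjusted p there. The adjusted p of the other 8 in the authors' deposited table ran from 0.878 to 0.998, so it held 0 of 8 members under 0.05, against 1.32% of its genes with an adjusted p.

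The wide errors of C1qa, C1qc, Csf1r and Lyz2 came with a difference between the control libraries. Control replicate 1 was the lowest of the 4 libraries in 7 of 9 members, against 26.7% of all genes tested, and control replicate 2 the highest in 5 of 9, against 26.3%. Several other lists, but not all, shared the low control replicate 1. It was lowest in 88.9% of MHC class II, 87.5% of Leydig cell and 85.7% of peritubular myoid genes. The share was 72.2% for lysosomal and 66.7% for Sertoli cell genes, against 77.8% of the members. It was 50% for endothelial cells and for lymphocytes, and 42.9% for monocytes and neutrophils. For germ cells it was 40% in spermatogonia, 25% in spermatocytes and 0% in elongating spermatids. Control replicate 2 exceeded control replicate 1 in 8 of 9 members, and by at least 2-fold in 5 of 9, against 4.41% of all genes tested. The ratio of control replicate 2 to replicate 1 was 2.73 (95% exact binomial interval 2.24 to 3.34) for C1qa, 2.89 (2.32 to 3.62) for C1qc, 2.81 (2.13 to 3.75) for Csf1r and 2.94 (2.53 to 3.42) for Lyz2. It was lower for C1qb, at 1.75 (1.52 to 2.01). For Cd163 it was 2.23 with an interval of 0.905 to 6.24, which its few counts leave wide. In contrast it was 1.17 (0.824 to 1.67) for Cd68, 0.893 (0.68 to 1.17) for Adgre1 and 1.15 (1.04 to 1.28) for Mrc1. Intervals are computed from the counts alone and cover counting error only. Reads carry no molecular identifiers, so copies of a molecule could be counted more than once.

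The vKO-labelled libraries were closer to each other than the controls were, except in Adgre1 and Mrc1. The ratio of their replicate 1 to replicate 2 had a median of 1.18 over the members, against 2.23 for control replicate 2 over replicate 1, and over all genes tested the same medians were 1.01 and 1. Csf1r stood out among the members, with 1.92 (1.57 to 2.36). Lyz2 was at 1.07 (0.951 to 1.2) and C1qb at 1.06 (0.931 to 1.21), but C1qa was at 1.3 (1.1 to 1.54) and C1qc at 1.27 (1.06 to 1.52). Adgre1, at 0.769 (0.589 to 1), and Mrc1, at 1.25 (1.12 to 1.38), lay further from 1 than in control. Ratios below and above 1 offset each other in the median, so it does not measure closeness gene by gene.

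**Figure D2:**
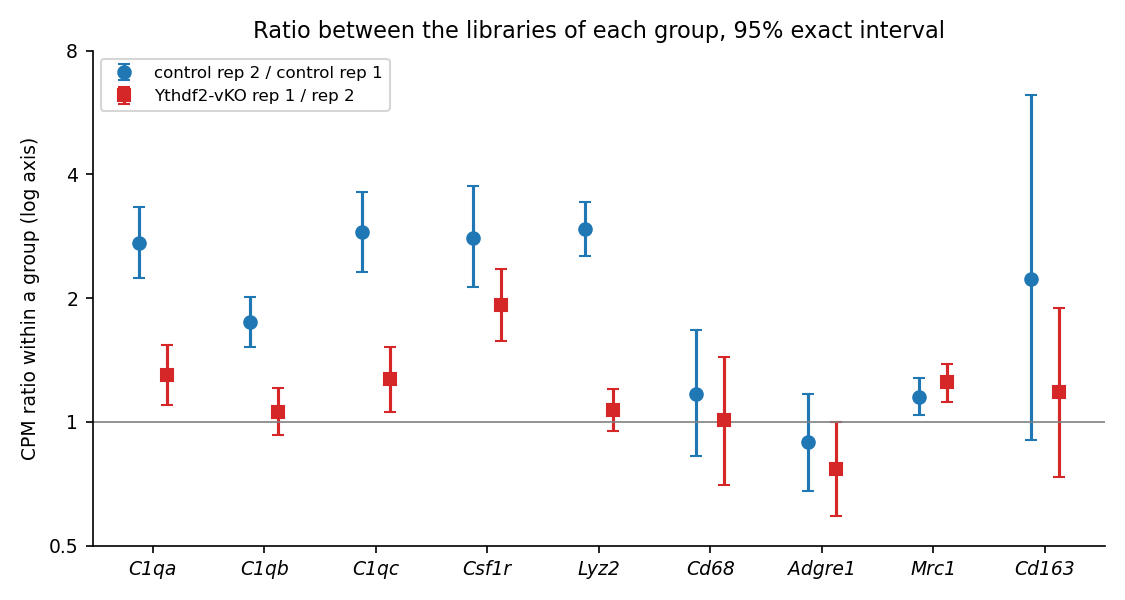
Ratio of CPM between the libraries of each group on a log axis, blue circles for control replicate 2 over 1 and red squares for Ythdf2-vKO replicate 1 over 2, with 95% exact binomial intervals. C1qa, C1qc, Csf1r and Lyz2 lie between 2.73 and 2.94 in control, whereas Cd68, Adgre1 and Mrc1 lie between 0.893 and 1.17.

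The relation of levels to GC content differed between the libraries, and its values stand beside this result. Over 17817 genes, transcript GC and the deviation of a gene from its mean of 4 libraries had a Spearman correlation of 0.0239 in control replicate 1 and -0.4 in control replicate 2, so GC-rich genes tended to be low in control replicate 2. The C1q genes have 57.4% to 59.5% GC and Lyz2 has 48.3%, beside a median of 48.9% for the genes tested. After an offset for GC the control ratio was 3.13 for C1qa, 3.2 for C1qc, 2.96 for Csf1r and 2.87 for Lyz2, and its median over the members was 2.17.

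For the C1q genes and Lyz2 both vKO-labelled libraries lay between the controls. The sign of the comparison therefore had to turn with the control library that was kept, which adds no separate evidence. Without control replicate 2, 5 of 9 members were called higher in the vKO-labelled libraries, against 2.53% of all genes called higher in that fit. These were Csf1r (log2 fold change 1.49, edgeR adjusted p 0.000127), Lyz2 (1.16, 5.79e-06), C1qa (0.98, 0.00366), C1qc (1.04, 0.00511) and Cd163 (2.26, 0.0313). Without control replicate 1, edgeR called 0 of 9, with 3 at an unadjusted p under 0.05. All genes in that fit were called higher at 4.72% and lower at 2.09%. The log2 fold change was then -0.47 for C1qa (adjusted p 0.16), -0.50 for C1qc (0.158), -0.41 for Lyz2 (0.143) and -0.34 for C1qb (0.292). Csf1r was at -0.01, and Cd163 stayed positive at 1.11 (adjusted p 0.278). Each of these fits rests on 1 control library, which is assumed to vary like the vKO-labelled libraries. The median over the 9 members was 0.98 without control replicate 2 and -0.22 without control replicate 1. It was -0.04, with 4 of 9 members positive and 0 called by edgeR, without replicate 1 of the vKO-labelled libraries.

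**Figure D3:**
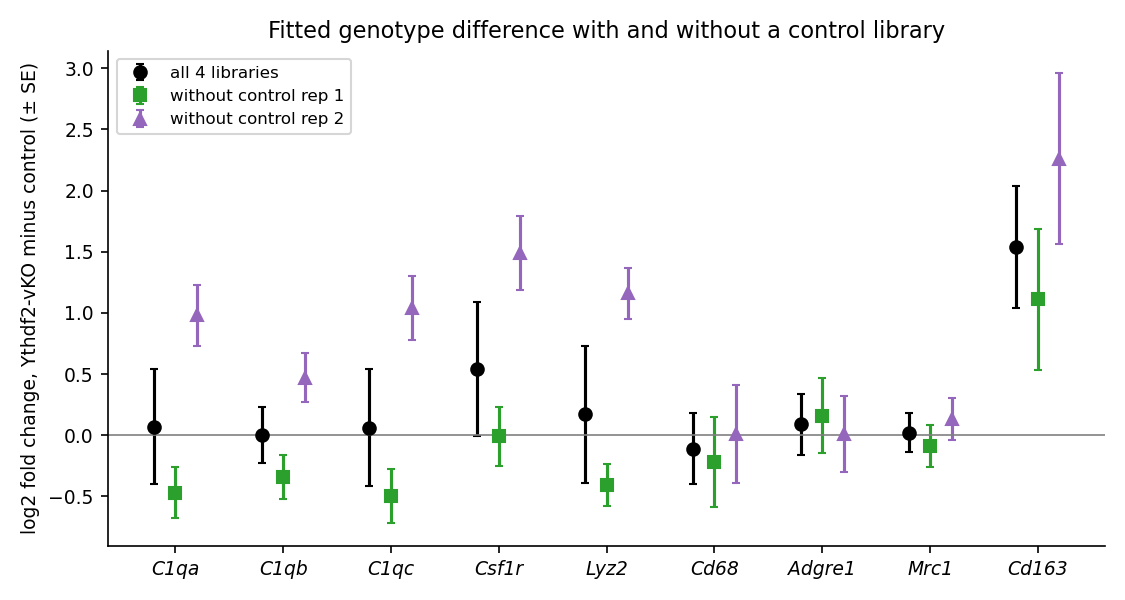
Fitted log2 fold change, Ythdf2-vKO minus control, with its standard error for each macrophage gene, using all 4 libraries (black), without control replicate 1 (green) and without control replicate 2 (purple). For C1qa, C1qb, C1qc and Lyz2 the green and purple points lie on opposite sides of 0, while Cd163 is above 0 in all 3 fits.

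Reads were also compared between members inside each library, where depth and scaling cancel. C1qa and C1qc kept a nearly fixed proportion, with 1.24 and 1.17 C1qa reads per C1qc read in control and 1.21 and 1.18 in the vKO-labelled libraries. Lyz2 did likewise, at 2.1, 2.14, 2.11 and 2.51 reads per C1qc read in the same order. The intervals of the 4 libraries overlapped for each of these pairs. C1qb did not keep step, since control replicate 1 held 2.77 C1qb reads per C1qc read (95% exact interval 2.21 to 3.5) and control replicate 2 held 1.68 (1.48 to 1.91). The vKO-labelled libraries lay between these values, at 1.72 and 2.06.

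The members that were even in CPM stood higher relative to C1qc in control replicate 1, where C1qc was low. Mrc1 gave 5.5 reads per C1qc read in control replicate 1 (4.46 to 6.83) but 2.19, 2.9 and 2.95 in the other libraries. Adgre1 gave 0.981 (0.74 to 1.3) in control replicate 1, and 0.303, 0.373 and 0.616 in the others. For Cd68 the value was 0.533 (0.379 to 0.745) against 0.216, 0.236 and 0.297. Csf1r departed in another library, with 1.01 reads per C1qc read (0.856 to 1.2) in replicate 1 of the vKO-labelled libraries and 0.612 to 0.671 in the other 3, although its interval touched that of control replicate 1 (0.455 to 0.863). The 9 genes thus did not move as a block. Cd68, Adgre1 and Mrc1 had a small range in common. Around its own mean log2 CPM, Adgre1 was at 0.04, -0.12, -0.15 and 0.22. Mrc1 was at -0.11, 0.09, 0.17 and -0.15, opposite in sign in each library. The library ratio of Adgre1 had an interval of 0.68 to 1.17 in control and 0.589 to 1 in the vKO-labelled libraries. Whether the profiles of these genes differ beyond counting error was not tested. Whether reads of these 3 genes came partly from other cells was not tested.

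**Figure D4:**
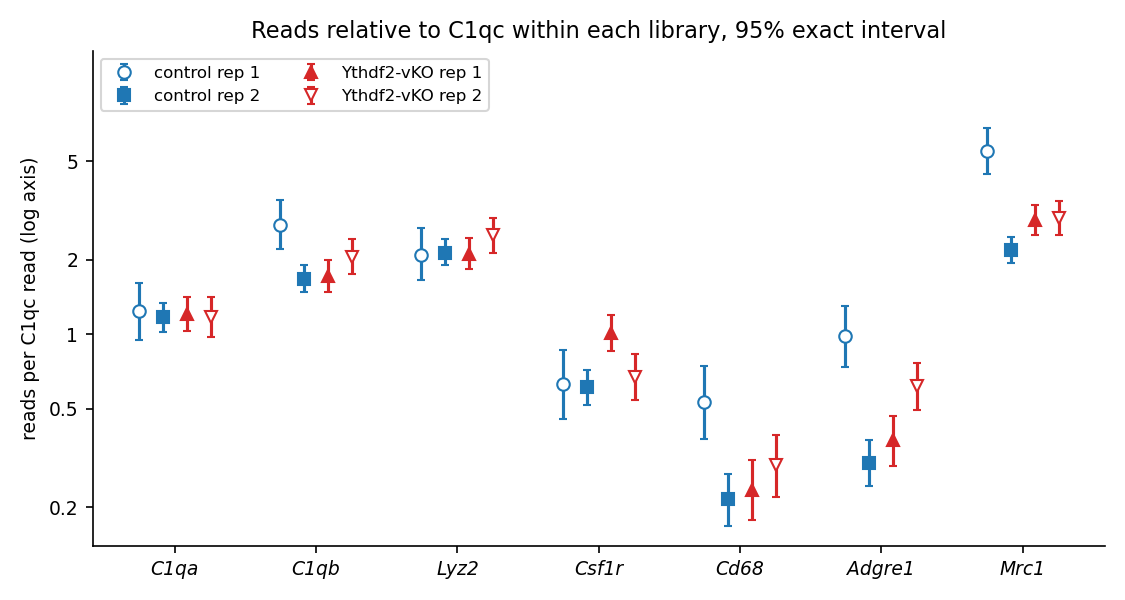
Reads of 7 macrophage genes per read of C1qc in each library (log axis), with 95% exact intervals and the same symbols as for CPM. C1qa and Lyz2 are level across libraries, while C1qb, Cd68, Adgre1 and Mrc1 are highest in control replicate 1.

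Levels per length were compared as CPM per kb of exon sequence, all annotated exons of a gene merged, in the GENCODE M21 annotation. This length exceeds the longest transcript in some members, as in C1qc (1931 against 1203 nt) and Csf1r (5774 against 4701 nt). Such members would stand higher by their longest transcript, so the order rests on this choice of length. C1qb (15.8 on average over 4 libraries) and Lyz2 (15.1) led, followed by C1qa (10.3), C1qc (4.65), Mrc1 (4.2), Cd68 (2), Adgre1 (1.33), Csf1r (1.15) and Cd163 (0.177). Only 3 steps in that order separated the ranges of neighbours over the 4 libraries. Mrc1 ranged from 3.76 to 4.69 CPM per kb, above Cd68 at 1.91 to 2.23. Cd68 lay above Adgre1, at 1.19 to 1.55. Csf1r, at 0.489 to 1.81, lay above Cd163, at 0.0548 to 0.287. The ranges of the other neighbours overlapped, but inside the libraries some kept their order. C1qa was above C1qc in 4 of 4 libraries, at 5.35, 14.6, 12 and 9.2 against 2.33, 6.72, 5.34 and 4.2 CPM per kb. Lyz2 was likewise above C1qa in 4 of 4. The order of C1qb and Lyz2, of C1qc and Mrc1, and of Adgre1 and Csf1r differed between libraries.

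The members' median profile was -0.84, 0.37, 0.24 and -0.04 log2 CPM around each gene's own mean, in control replicates 1 and 2 and in the vKO-labelled libraries in turn. Among 17669 other genes of at least 1 CPM, the 5 nearest to it by Euclidean distance over the 4 libraries were Gm17737 (distance 0.149), Gm29089 (0.155), Rgs5 (0.157), Armcx2 (0.16) and Trim30d (0.164). With 4 libraries such closeness is a description only. C1qa (0.241), C1qc (0.273) and Lyz2 (0.309) were the members nearest to their own median, and Adgre1 (1.11) and Cd163 (1.22) the farthest.

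Genes upstream of the macrophage came from a list of the CSF1 axis and myeloid transcription factors, of which 14 of 14 were tested and 0 were called. Their median log2 fold change was 0.55, with 12 of 14 positive and 3 at an unadjusted p under 0.05. Csf1, the ligand of CSF1R, was at 2.61 and 3.54 CPM in the controls, against 6.54 and 4.11 CPM in the vKO-labelled libraries (log2 fold change 0.78, SE 0.29, adjusted p 0.242), the highest of the list above 1 CPM. Its groups did not overlap, which held for 45.3% of all genes tested in either direction. Nr1h3, a nuclear receptor for oxysterols and the most abundant of the list, and Cebpa, a myeloid transcription factor, had log2 fold changes of -0.16 and -0.20. Spi1, named after its values were seen because it encodes PU.1, had 9 and 48 counts in the controls, against 41 and 49 in the vKO-labelled libraries. Control replicate 1 was thus the low library. The list's median was 0.67 without control replicate 2 and 0.12 without control replicate 1. Csf1r is both in this list and a member, so the list is not independent of the members.

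Pan-leukocyte and myeloid adaptor genes, with 12 of 12 tested, had 0 calls and 0 at an unadjusted p under 0.05, with a median log2 fold change of 0.19 and 8 of 12 positive. Control replicate 2 was at least 2-fold above replicate 1 in 7 of the 12. Cd52, a small leukocyte surface glycoprotein, was at 0.599 and 3 CPM in the controls, against 1.08 and 1.33 CPM in the vKO-labelled libraries. Ptprc, the leukocyte common antigen, named after its values were seen, was at 0.685 and 3.04 CPM against 1.23 and 1.74 CPM. Lcp1, an actin-bundling protein of blood cells, was at 2.05 and 5.14 CPM against 6.16 and 5.34 CPM (log2 fold change 0.66, SE 0.35). The most counted genes of the list, Aif1 and the adaptor Fyb, were closer between the controls. Aif1, a calcium-binding protein used as a macrophage marker, was at 344 and 340 CPM there, against 278 and 322 CPM in the vKO-labelled libraries. These levels were far above those of any member, and which cells the Aif1 reads came from was not tested. Fyb was at 16.5 and 20.1 CPM in the controls. Without control replicate 1 the list's median was -0.26 with Cd52 called lower, and without control replicate 2 it was 1.01 with 3 genes called higher.

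Resident macrophage receptors and secreted genes were tested in 23 of 28, with 0 called, 18 of 23 positive, a median log2 fold change of 0.42 and 5 at an unadjusted p under 0.05. Stab1, a scavenger receptor of resident macrophages and sinusoidal endothelium, was at 4.19 and 5.54 CPM in the controls, against 11.3 and 8.19 CPM in the vKO-labelled libraries. It was higher in both of the latter, at a log2 fold change of 0.99 (SE 0.23), but was not called (edgeR adjusted p 0.0939). Fcgr3, an Fc receptor for immunoglobulin G, went the other way, from 104 and 103 CPM to 83 and 51.2 CPM (log2 fold change -0.62, SE 0.19, adjusted p 0.198). It was not called either. In CPM, Fcgr3 and Gas6 were each above every member in each library, and which cells their reads came from was not tested. Gas6, a ligand of the receptors Axl and Mertk that take part in the uptake of dying cells, had a log2 fold change of -0.23. The list's median was 0.13 without control replicate 1 and 0.94 without control replicate 2.

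MHC class II presentation genes separated the control libraries most among the lists tested, with a median ratio of control replicate 2 to replicate 1 of 2.95 over 9 of 11 tested, and 9 of 9 higher. H2-Aa, the alpha chain of a class II molecule, had 72 and 862 counts in the controls, against 282 and 258 counts in the vKO-labelled libraries. Cd74, the invariant chain, had 106 and 802 counts against 377 and 339. For each the vKO-labelled libraries lay between the controls. Of the list 0 were called, 2 had an unadjusted p under 0.05, 4 of 9 were positive and the median log2 fold change was -0.25. The list's median went from -0.51 without control replicate 1 to 0.88 without control replicate 2. H2-DMa, which helps load peptides, was nearly even in control at 7.32 and 7.57 CPM, and was at 10.9 and 11.5 CPM in the vKO-labelled libraries (log2 fold change 0.59, SE 0.18, adjusted p 0.181). Lgmn, a lysosomal protease and the most abundant of the list, differed by 0.40 in log2 (SE 0.15, adjusted p 0.267).

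Complement genes other than C1q had 16 of 20 tested, 0 called, 12 of 16 positive, a median log2 fold change of 0.34 and 2 at an unadjusted p under 0.05. Itgax, the alpha chain of a complement receptor, had the highest log2 fold change above 1 CPM, at 1.33 (SE 0.43, adjusted p 0.194), with 17 and 25 counts in the controls, against 68 and 38 in the vKO-labelled libraries. Clu, a secreted chaperone and complement inhibitor that Sertoli cells make in quantity, was at 658 and 715 CPM in the controls, against 934 and 801 CPM in the vKO-labelled libraries (0.34, SE 0.12, adjusted p 0.243). Cd55, a membrane inhibitor of complement, was level at -0.09 (SE 0.15). C3, the central component, was named after its values were seen: it was at 2.22 and 7.54 CPM in the controls, against 12.5 and 10.2 CPM in the vKO-labelled libraries (1.19, SE 0.53, adjusted p 0.408). The list's median was 0.93 without control replicate 2 and 0.18 without control replicate 1.

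Lysosomal genes, tested in 18 of 18, shared the direction of the gap between controls at a smaller size. Control replicate 2 was above replicate 1 in 15 of 18, with a median ratio of 1.17, and at least 2-fold above it in 0 of 18. Psap, the precursor of the saposins that help degrade sphingolipids, rose from 158 and 149 CPM in control to 286 and 252 CPM in the vKO-labelled libraries, a log2 fold change of 0.81 (SE 0.12) at an edgeR adjusted p of 0.0171. It was the only gene of the list that was called. Ctsl, a lysosomal protease, went from 216 and 255 CPM to 377 and 329 CPM (0.59, SE 0.13, adjusted p 0.0819), whereas Lamp1, a lysosomal membrane protein, was level (0.01, SE 0.12). Gla had the most negative value above 1 CPM, at -0.13. The median log2 fold change was 0.24, with 15 of 18 positive. Psap and Ctsl exceeded every member in CPM, and which cells their reads came from was not tested.

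**Figure D5:**
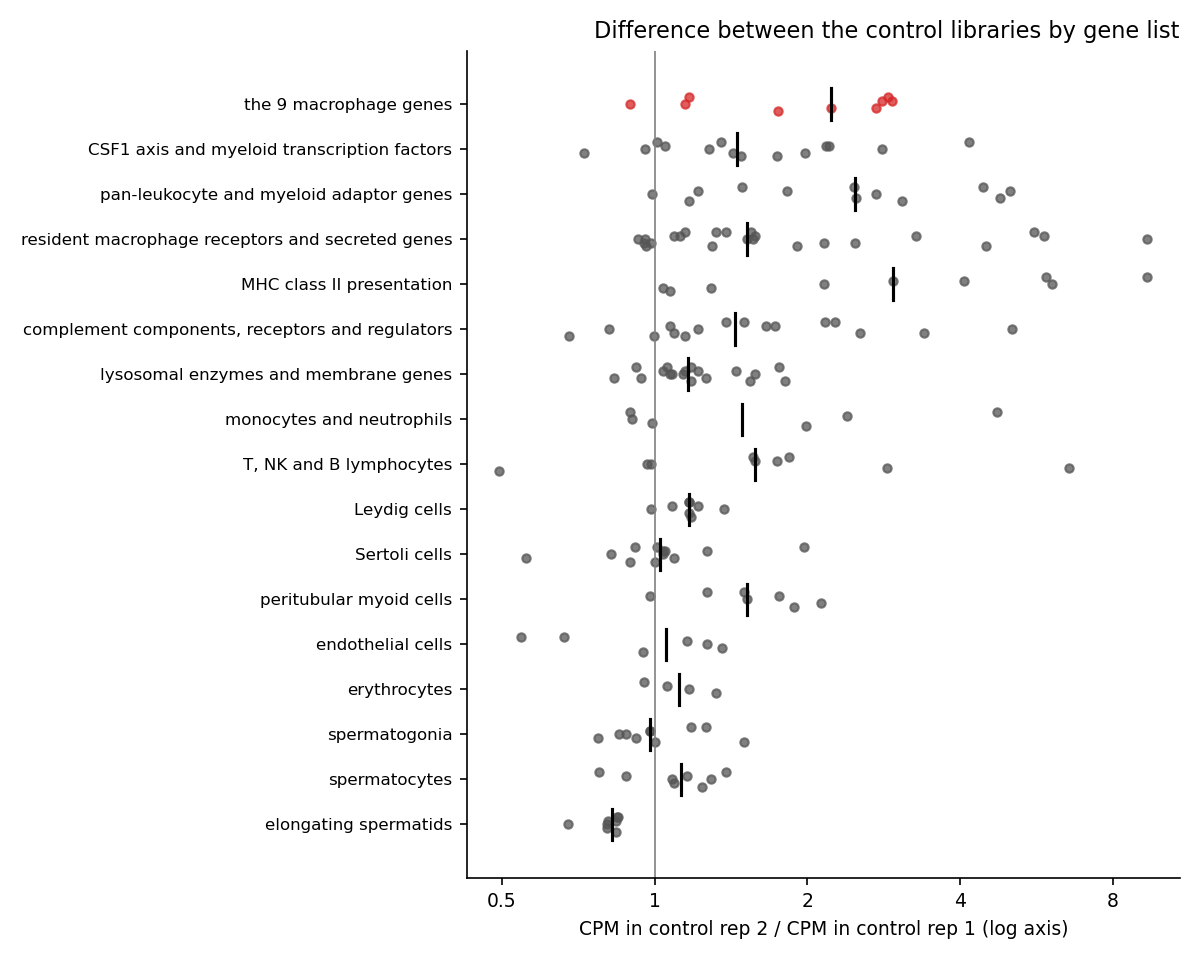
Ratio of CPM in control replicate 2 to control replicate 1 (log axis) for each tested gene of the lists, with the median of each list as a black bar and the 9 macrophage genes in red. Genes with 0 counts in control replicate 1 are not drawn, and mast cells, with 1 gene tested, are left out. Medians are 2.95 for MHC class II, 2.49 for pan-leukocyte genes and 2.23 for the macrophage genes, and 0.823 for elongating spermatids.

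Markers of the other cells of the testis moved between the libraries as follows, and their part in the macrophage values was not tested. The ratio of control replicate 2 to replicate 1 had a median of 1.52 for peritubular myoid cells (7 tested), 1.17 for Leydig cells (8), 1.12 for spermatocytes (8), 1.11 for erythrocytes (4), 1.05 for endothelial cells (6), 1.02 for Sertoli cells (12), 0.98 for spermatogonia (10) and 0.823 for elongating spermatids (8). Summed CPM of the elongating spermatid list was highest in control replicate 1, at 11039.0, against 8934.6 in control replicate 2 and 8589.3 and 8731.7 in the vKO-labelled libraries. Between the genotypes, median log2 fold changes were 0.76 for erythrocytes, 0.40 for endothelial cells, 0.39 for Sertoli cells, 0.38 for Leydig cells, 0.21 for spermatogonia, -0.05 for myoid cells, -0.14 for spermatocytes and -0.27 for elongating spermatids. Summed CPM of the Leydig cell list was 301 and 365 in the controls, against 478 and 357, and that of the Sertoli cell list was 1025.8 and 1065.7, against 1467.1 and 1286.9. Wt1, a Sertoli cell transcription factor, was the only gene called in these lists, at 31.3 and 32.8 CPM in the controls, against 54.2 and 50.7 CPM in the vKO-labelled libraries.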

How the data were processed

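Whole-testis RNA depleted of ribosomal RNA was sequenced from directional libraries, per the labels' protocols. The authors deposited raw read counts per gene, and HISAT2 2.1.0 and HTSeq 0.6.1p1 are named in the submitters' processing notes without settings. The build, annotation and strand setting are not given in the sources used here. The authors also deposited, per the file headers, a mean normalized count (a signal of counts divided by size factors), log2 fold changes, their standard errors, a Wald statistic (score), a p-value and an adjusted p-value. Recomputing the deposited mean from the counts gave a largest relative difference of 4.93e-10. No gene had fewer than 10 counts in total.

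Counts were fitted with edgeR 4.0.16 (limma 3.58.1, R 4.3.3): TMM scaling, filterByExpr, robust quasi-likelihood F test of genotype, two-sided, Benjamini-Hochberg over 21132 genes, prior count 0.125. SE is the absolute log2 fold change divided by the square root of F. The fit was tested on simulated counts. GENCODE M21 (GRCm38) gave positions and exon lengths, and 24 identifiers were not in it. Transcripts were compared with BLAST 2.17.0, at 90% identity (set after the first output was seen) and 100 nt or more. Exact intervals used SciPy 1.17.1.

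Replicate numbers were not taken to pair libraries: the labels give them no meaning. The alternatives were DESeq2 size factors, library totals alone, other filters, no robust estimation, a DESeq2 1.42.0 Wald test, a prior count of 2, a replicate block, a GC offset and leaving out each library.

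The members and lists were chosen with earlier results of these data known. Named genes were the members, called list genes, the 2 most abundant of each list, the largest rise and fall (at least 1 CPM) of 6 lists, and the 5 genes nearest in profile. A few genes that this rule names are not reported here. Of the other cells' lists only called genes and summaries are given. Spi1, Ptprc, C3, Ccr2, Ly6c2, Cd8a and Cpa3 were named after their values were seen.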

Additional observations from a re-analysis of the deposited data

How the results depend on the processing

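Under every setting with all 4 libraries, edgeR or DESeq2 called 0 of the 9 members (0 of 8 where at least 10 counts were required in every library, which drops Cd163, and 0 of the 8 with an adjusted p by DESeq2), and the median log2 fold change stayed between 0.07 and 0.20. Leaving out a library moved the number of members called between 0 and 5, and the median between -0.22 and 0.98. Signs near 0 changed. Of the 9 members, 8 were positive in the main fit, 5 with the GC offset and 6 with the GC offset and replicate block. With the GC offset C1qa was at -0.19, C1qb at -0.19 and C1qc at -0.15. With the GC offset and replicate block C1qa was at -0.02 and C1qb at -0.12. Over the fits that left out 1 library, the range was -0.22 to 0.01 for Cd68, -0.01 to 1.49 for Csf1r, -0.12 to 0.26 for Adgre1, -0.47 to 0.98 for C1qa, -0.34 to 0.47 for C1qb, -0.50 to 1.04 for C1qc, -0.41 to 1.16 for Lyz2 and -0.15 to 0.17 for Mrc1. Cd163 stayed positive in the fits that had it, at 1.11 to 2.26 with a library left out, and its adjusted p ran from 0.0313 to 0.769 over all alternatives. The cause was not tested.

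Over all genes, 83 calls (59 higher, 24 lower) became 218 (181 and 37) when only library totals were used, 217 by the DESeq2 Wald test (137 and 80), 146 under the GC offset (79 and 67) and 35 to 1512 when a library was left out, whose fewer samples rest on 1 library in a group. Under library totals the all-gene median went from 0.00265 to 0.0674 (log2). Same-numbered libraries had deviations with a correlation of 0.0932 over 17827 genes and only 2 pairs. With the replicate block 1017 genes were called (627 and 390), and 455 with the GC offset and replicate block (215 and 240). The block called 0 members in both. Cd163 has the fewest counts of the members, 7 in control replicate 1.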

Other observations

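Many of the listed markers of other white blood cells were absent or had too few counts to be tested. Of 14 monocyte and neutrophil genes 7 were tested and 0 were called, with 1 at an unadjusted p under 0.05 and a median log2 fold change of -0.17. Of 16 T, NK and B lymphocyte genes 10 were tested and 0 were called, with 2 at an unadjusted p under 0.05 and a median of -0.07. Of 7 mast cell genes 2 had a row and 1 was tested, Hdc, the enzyme that makes histamine. Hdc was at 30.8 and 33.5 CPM in the controls, against 47.3 and 43.3 CPM in the vKO-labelled libraries. It was not called (edgeR adjusted p 0.141). The other, Cpa3, had only 5 and 8 counts in the controls, against 10 and 0 in the vKO-labelled libraries. Which cells the Hdc reads came from was not tested. Plac8 and Trbc2, among the most abundant genes of the other lists, lay between 1.76 and 9.93 CPM in every library.

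Control replicate 2 was the highest library in 4 of the 7 monocyte and neutrophil genes and in 5 of the 10 lymphocyte genes, against 26.3% of all genes tested. Plac8 was highest in replicate 2 of the vKO-labelled libraries, at 9.93 CPM. The next 4 genes were highest in control replicate 2; Ccr2, Ly6c2 and Cd8a were named after their values were seen. Ccr2, the chemokine receptor of inflammatory monocytes, had 12 and 73 counts in the controls, against 18 and 6 in the vKO-labelled libraries. Ly6c2, a surface marker of the same cells, had 0 and 36 counts in the controls, against 20 and 10 in the vKO-labelled libraries. Cd8a, a co-receptor of cytotoxic T cells, had 5 and 42 counts in the controls, against 9 and 21 in the vKO-labelled libraries. Trbc2, a constant region of the T cell receptor beta chain, was at 2.35 and 4.1 CPM in the controls, against 1.76 and 1.85 CPM in the vKO-labelled libraries (log2 fold change -0.85, SE 0.33, adjusted p 0.272). The monocyte and neutrophil list had a median log2 fold change of -0.41 without control replicate 1 and 0.22 without control replicate 2. For the lymphocyte list these medians were -0.39 and 0.59.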
